A study of Mus musculus with 4 samples.

Results

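Cathepsins are proteases of the lysosome, and 10 of their genes (Ctsa, Ctsb, Ctsc, Ctsd, Ctse, Ctsh, Ctsk, Ctsl, Ctss and Ctsz) were followed here in blood stem and progenitor cells. They were found by gene symbol in the probe annotation, which gave 10 of 18193 measured genes and 22 probe sets. A probe set is a group of short probes meant to read 1 transcript, and some can match several. Of several probe sets of a gene, the one with the highest mean log2 intensity over the 4 arrays was the main one, and the others are given beside it. The cells were LSK cells (lineage negative, cKit positive, Sca1 positive), a sort of mouse bone marrow in which blood stem cells and the earliest progenitors are found. The Ncstn KO mice were Ncstn flox/flox with the Mx1-cre transgene (1 female and 1 male), and the WT mice were Ncstn flox/flox littermates without cre (1 female and 1 male). Mx1-cre is a recombinase gene under an interferon-responsive promoter that is active in many cell types besides blood cells. Ncstn encodes nicastrin, a subunit of gamma-secretase, the membrane protease that cleaves Notch receptors. Mice of both genotypes received 3 injections of polyIC, an inducer of interferon, at 20 µg per g of body weight from 14 days of age, and were 6 weeks old when their cells were collected, 4 weeks after polyIC. The transgene and the deletion therefore cannot be told apart.

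Cathepsins are made as inactive proforms, carried to the lysosome largely by mannose 6-phosphate receptors, and activated there at acid pH. Most are cysteine proteases (Ctsb, Ctsc, Ctsh, Ctsk, Ctsl, Ctss and Ctsz), while Ctsd and Ctse are aspartic proteases and Ctsa is a serine carboxypeptidase. In blood cells they are best known from monocytes, macrophages and antigen-presenting cells, where they break down endocytosed protein, and cathepsin C activates the serine proteases of granules. Many lysosomal genes carry a DNA element with the core CACGTG, which is bound by TFEB and TFE3.

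The labels were checked first. Ncstn itself had log2 intensities of 7.58 and 7.91 on the Ncstn KO arrays, against 9.05 and 8.98 on the WT arrays, a difference of -1.27 (SE 0.22, limma adjusted p = 0.257). Its other probe set was lower on Ncstn KO replicate 1 (5.86) but not on Ncstn KO replicate 2 (7.09), against 6.81 and 6.79 in WT. Kit, the gene of the sorted receptor cKit, was at 11.70 and 11.73 in Ncstn KO and 11.94 and 11.57 in WT. Of 6 measured lineage antigens, 2 had a higher mean in Ncstn KO and 0 passed the test. Cd4, the brightest, was at 8.55 and 8.97 in Ncstn KO and 7.89 and 8.45 in WT, and Ms4a1, the antigen of B cells, at 5.74 and 5.74 in Ncstn KO and 7.79 and 7.94 in WT. Cd8a was at 6.51 and 5.58 in Ncstn KO and 5.21 and 7.07 in WT. Cd3e was at 4.55 to 4.96 in Ncstn KO and 5.09 to 5.14 in WT, and Itgam at 5.45 to 5.77 in Ncstn KO and 4.05 to 5.02 in WT. Ly6a and Ly6g were not analysed here. The median of all genes was 8.04 on the same log2 scale. Probes differ in how strongly they bind, so differences are taken between arrays of the same gene. Where levels of different genes are set side by side, they are only roughly comparable.

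In Ncstn KO, 9 of the 10 cathepsin genes had a higher mean than in WT, by 0.01 (Ctsc) to 0.64 (Ctsl) on the log2 scale, and Ctsk had a lower one. None of the 10 passed the test, which is limma's moderated test with Benjamini-Hochberg adjustment over all 18193 genes at 0.05 (2 arrays per genotype, n = 2). It called 0% of all genes, so that the count of 0 of 10 is the same as the background. At an unadjusted p under 0.05 there were 3 cathepsin genes, Ctsl, Ctsd and Ctss, all higher, against 4.96% of all genes that were higher at this p. Both Ncstn KO arrays lay above both WT arrays for 8 cathepsin genes, where 21.3% of all genes did so, and below them for Ctsk, where 12.8% did so. The members share the same 4 arrays, so these are not 8 independent observations. The median difference of the 10 genes was 0.26, and that of all genes 0.02. A mean above WT was found for 55.8% of all genes and for 51.7% of genes brighter than the median.

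The number of cathepsin genes above WT depended on which scaling was used. It was 9 of 10 after centring each array on its median. After quantile normalization, which gives the arrays a common distribution, it was 8 of 10. It was lower after scaling to control RNAs. The bacterial and phage control RNAs added at hybridization were brighter in Ncstn KO by 0.195 (log2). Scaling to them moved the median of all genes to -0.17 and that of the cathepsin genes to 0.06. It left 6 of 10 cathepsin genes above WT, with Ctsb at -0.11, Ctsc at -0.19 and Ctse at -0.02, and both Ncstn KO arrays above both WT arrays for 2 genes, Ctsl and, by 0.01, Ctsd.

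**Figure D1:**
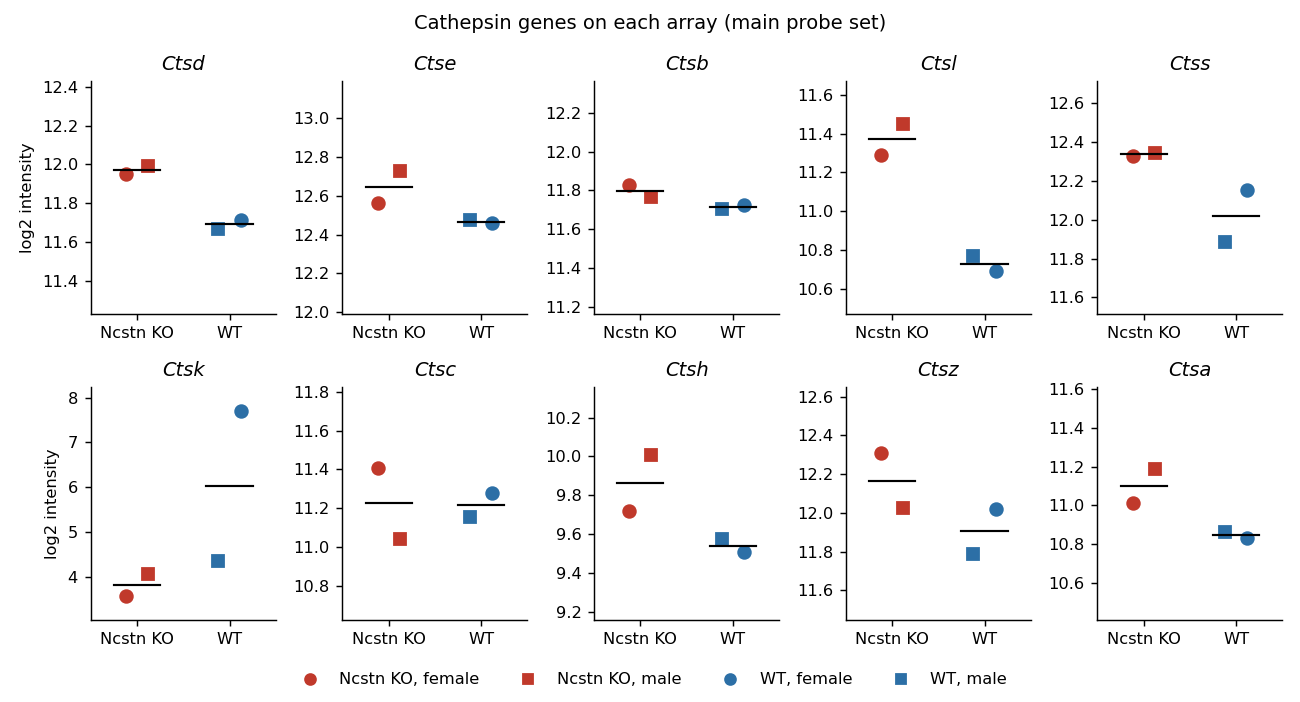
Log2 intensity of the main probe set of each cathepsin gene on the 4 arrays, with Ncstn KO at left and WT at right of each panel. Points are single mice (circle female, square male) and lines are group means of 2 mice; all panels span the same height on the log2 scale except Ctsk, whose axis is wider. Ctsl shows the widest gap between the nearest arrays of the genotypes among the genes higher in Ncstn KO, Ctsd has a narrower gap with less spread, and Ctsk is set apart by the WT female.

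Sequence upstream of the genes is shown for the 3 members with an unadjusted p under 0.05 and for Ctsa, whose window holds the lysosomal element in its longer form at both of its matches. RefSeq windows (GRCm38.p6, 250 bases before to 50 bases after an annotated start site) were at hand for 7 of the 10 genes, in 8 windows, and no window was printed for Ctsb, Ctse and Ctsh. Capitals mark matches to CACGTG, to TCACGTGA, which contains it, to AANNGAAA, the core bound by interferon regulatory factors, and to GAGGAAGT, a sequence of the kind bound by ETS factors such as PU.1, each searched on both strands.
Ctsd, chr7:142387778-142388077, minus strand: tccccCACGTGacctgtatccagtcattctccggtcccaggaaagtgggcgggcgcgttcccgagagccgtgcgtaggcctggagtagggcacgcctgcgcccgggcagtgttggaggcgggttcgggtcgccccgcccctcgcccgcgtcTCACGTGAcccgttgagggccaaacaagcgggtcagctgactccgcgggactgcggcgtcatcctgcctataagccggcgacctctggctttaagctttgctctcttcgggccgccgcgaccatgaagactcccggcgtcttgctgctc
Ctsl, chr13:64370471-64370770, minus strand: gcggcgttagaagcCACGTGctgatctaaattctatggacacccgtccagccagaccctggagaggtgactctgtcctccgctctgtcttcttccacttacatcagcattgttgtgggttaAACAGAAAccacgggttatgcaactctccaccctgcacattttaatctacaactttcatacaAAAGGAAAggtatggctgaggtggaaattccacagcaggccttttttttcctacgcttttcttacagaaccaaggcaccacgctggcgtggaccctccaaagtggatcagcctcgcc
Ctss, chr3:95526536-95526835, plus strand: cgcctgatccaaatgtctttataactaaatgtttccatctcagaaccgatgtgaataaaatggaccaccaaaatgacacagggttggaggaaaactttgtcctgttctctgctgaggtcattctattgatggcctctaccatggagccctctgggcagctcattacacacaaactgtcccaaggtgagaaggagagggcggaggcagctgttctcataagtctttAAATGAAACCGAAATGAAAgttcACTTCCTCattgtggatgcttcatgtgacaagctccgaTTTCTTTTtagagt
Ctsa, chr2:164833523-164833822, plus strand: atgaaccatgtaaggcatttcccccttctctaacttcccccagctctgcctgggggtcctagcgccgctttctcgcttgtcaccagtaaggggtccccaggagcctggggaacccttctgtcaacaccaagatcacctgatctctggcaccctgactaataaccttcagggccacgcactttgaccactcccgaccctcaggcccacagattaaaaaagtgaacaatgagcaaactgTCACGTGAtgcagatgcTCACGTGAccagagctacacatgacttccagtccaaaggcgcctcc
CACGTG was found in the windows of Ctsd, Ctsl and Ctsa, and in 7.15% of all 32851 windows of this length. The longer TCACGTGA was found in those of Ctsd and Ctsa and in 0.974% of all windows, at -99 in Ctsd and at -13 and 5 in Ctsa, counted from the start site as base 1. The other Ctsa window, upstream of it, held no match. AANNGAAA was found in the windows of Ctss and Ctsl and in 23.9% of all windows. In Ctss 3 of its 4 matches overlapped, at -25, -19 and -14. GAGGAAGT was found in those of Ctss (at -2) and Ctsc (at -151), and in 3.20% of all windows. The windows of Ctsk and Ctsz held none of these letters. No binding was measured, and a match describes the letters only.

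Both aspartic protease genes had a higher mean in Ncstn KO, although Ctse did not after the hybridization-control scaling. Ctsd, a major endopeptidase of the lysosome, had log2 intensities of 11.95 and 11.99 in Ncstn KO, against 11.67 and 11.71 in WT. The groups were 0.24 apart at their nearest arrays, with an SD within each group of 0.03. The difference was 0.28 (SE 0.09, 1.21-fold, limma adjusted p = 0.595). Ctse, an endosomal relative of Ctsd, had 12.56 and 12.73 in Ncstn KO, against 12.47 and 12.46 in WT, a difference of 0.18 (SE 0.08, adjusted p = 0.797). Its second, dimmer probe set went the other way, at 6.40 and 6.38 in Ncstn KO against 6.74 and 6.52 in WT, so the mean of both probe sets gave -0.03. The direction of Ctse thus rested on the probe set chosen.

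Among the cysteine endopeptidases, Ctsl had the smallest p of the cathepsin genes. Ctsl, which degrades endocytosed protein and can cut proteins outside the lysosome, had 11.29 and 11.45 in Ncstn KO, against 10.77 and 10.69 in WT. The nearest arrays of the groups were 0.52 apart, more than the 0.16 between the Ncstn KO arrays and the 0.08 between the WT arrays. The difference was 0.64 (SE 0.12, 1.56-fold) with an unadjusted p of 0.00158 and a limma adjusted p of 0.293, which ran from 0.121 to 1 over the alternatives. Its second probe set had 8.11 and 8.37 in Ncstn KO against 7.80 and 7.42 in WT, a difference of 0.63 (SE 0.26). The sexes gave similar values, 0.60 between the females and 0.68 between the males, and scaling to the hybridization controls gave 0.44.

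Ctss, which trims the invariant chain of class II molecules in antigen-presenting cells, had 12.33 and 12.35 in Ncstn KO, against 11.89 and 12.15 in WT. The Ncstn KO arrays were nearly alike and the WT female stood between them and the WT male. The difference was 0.32 (SE 0.11, 1.25-fold, limma adjusted p = 0.637), and 0.18 without WT replicate 1. Ctsb, which acts both as an endopeptidase and as a carboxypeptidase, differed least among the endopeptidases on its main probe set, with 11.83 and 11.76 in Ncstn KO against 11.70 and 11.72 in WT (0.08, SE 0.09). Its 4 other probe sets gave 0.44, 0.37, 0.13 and -0.01, and the last of these was dim, at 4.01 to 4.21 on all arrays. The first pair had SEs of 0.20 and 0.22, wider than that of the main probe set.

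**Figure D2:**
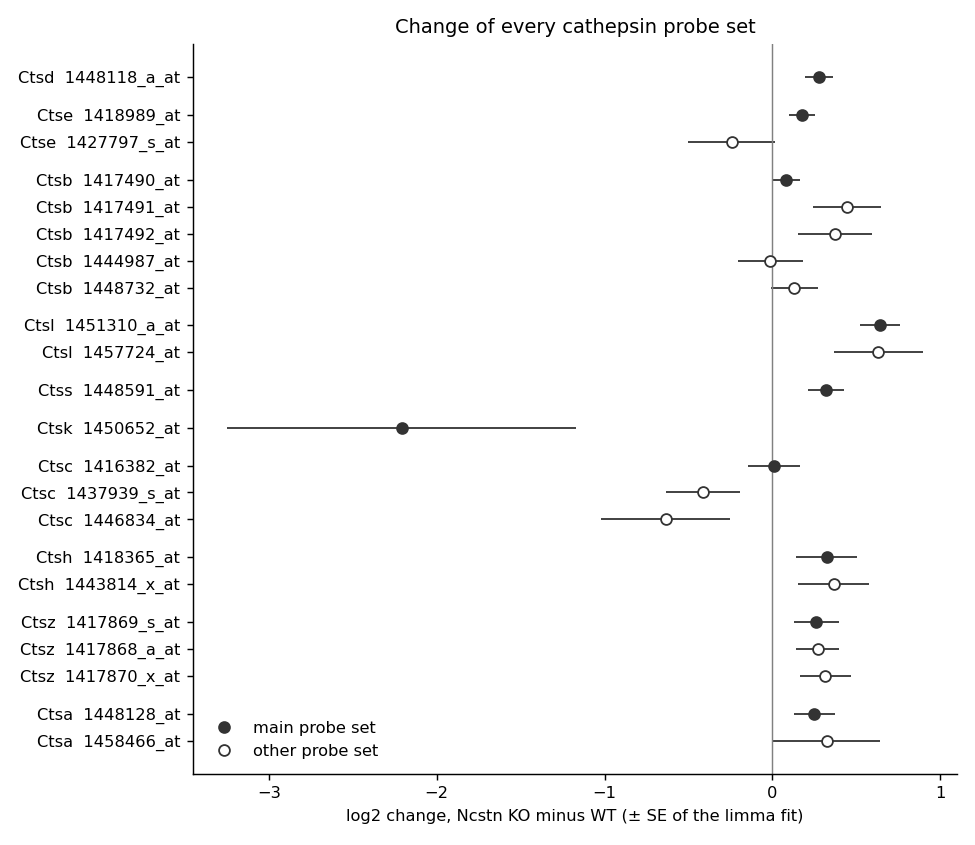
Log2 difference, Ncstn KO minus WT, of all 22 cathepsin probe sets, with the SE of the limma fit on all probe sets (2 arrays per genotype). Filled points are main probe sets and open points the others; Ctsl, Ctsh and Ctsz are alike over their probe sets, while those of Ctsb (by 1 dim probe set at -0.01), Ctsc and Ctse lie on both sides of 0.

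Ctsk, the collagen-degrading protease of osteoclasts, had a difference that rested mostly on 1 array. It had 3.57 and 4.05 in Ncstn KO, against 4.35 and 7.69 in WT, where the high value was that of the female. The mean was 3.81 ± 0.33 in Ncstn KO and 6.02 ± 2.36 in WT (SD, n = 2 each). The difference of -2.21 (SE 0.99, limma adjusted p = 0.779) became -0.54 without WT replicate 2 and -3.88 without WT replicate 1. The 8 placental cathepsin genes, which are expressed in the placenta of rodents, ran from 2.56 to 3.83 over all arrays, and describe how unused probe sets of this family read on these arrays. In a count made after this value was seen, Ctsk was the only gene on WT replicate 2 that exceeded the 3 other arrays by more than 3 on the log2 scale, and each other array had 2 such genes. Ctsk and Ctss are neighbours on chromosome 3, with 1 annotated gene between them, and the high Ctsk value had no parallel in Ctss.

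Acp5 and Atp6v0d2, of the 7 osteoclast markers, were highest on the array with the high Ctsk value. That array was also the highest for the macrophage markers Cd5l and C1qa and, nearly level with Ncstn KO replicate 1, for C1qb. It was not the highest for the macrophage markers Adgre1, Csf1r, Cd68, Mrc1, Vcam1 and C1qc. Acp5, the tartrate-resistant acid phosphatase of osteoclasts, had 7.42 and 7.14 in Ncstn KO, against 7.88 and 9.48 in WT (-1.40, SE 0.51, adjusted p = 0.673, and -0.60 without WT replicate 2). Atp6v0d2, a proton pump subunit of osteoclasts named here after its values were seen, had 3.93 and 3.31 in Ncstn KO, against 3.73 and 5.22 in WT (-0.85, SE 0.49, and -0.11 without WT replicate 2). The other osteoclast markers were not highest there: Dcstamp, Ocstamp, Oscar, Calcr and Mmp9 each had at least 1 higher array. Of the 7 osteoclast markers, 5 had a higher mean in Ncstn KO, and their summed intensity was 1190 and 1973 in Ncstn KO and 1207 and 1601 in WT. The part of such cells in the Ctsk value was not tested. In bulk RNA, more cells of a type and more RNA per cell cannot be told apart.

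**Figure D3:**
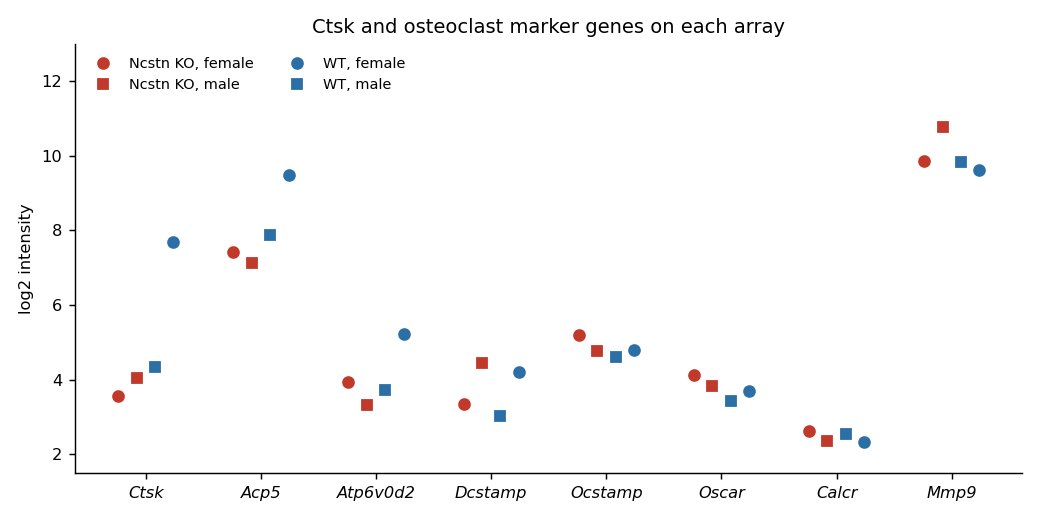
Log2 intensity of Ctsk and the 7 osteoclast marker genes on each array, Ncstn KO left of WT for each gene (circle female, square male). The WT female is highest for Ctsk, Acp5 and Atp6v0d2 and not for the other 5 genes.

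The exopeptidases fell into different patterns. Ctsc, the dipeptidyl peptidase that activates granule serine proteases, overlapped between the genotypes, with 11.41 and 11.04 in Ncstn KO against 11.15 and 11.28 in WT, and its difference was 0.01 (SE 0.15). Its other probe sets had lower means in Ncstn KO. The first had 7.85 and 7.97 in Ncstn KO against 8.33 and 8.31 in WT (-0.41, SE 0.22), the other 7.69 and 8.01 against 8.99 and 7.98 (-0.64, SE 0.38). The mean of the 3 Ctsc probe sets gave -0.35, and none passed. Ctsh, an aminopeptidase, had 9.72 and 10.01 in Ncstn KO, against 9.57 and 9.51 in WT. This was a difference of 0.32 (SE 0.17, adjusted p = 0.843), set by the Ncstn KO male more than by the female, and its second probe set gave 0.37. It was 0.18 without Ncstn KO replicate 2, the male, and 0.13 scaled to the hybridization controls. Ctsa, a carboxypeptidase that also stabilises the lysosomal enzymes encoded by Neu1 and Glb1, had 11.01 and 11.19 in Ncstn KO, against 10.86 and 10.83 in WT (0.25, SE 0.12, adjusted p = 0.798). Its partners had differences of 0.57 (Neu1) and 0.12 (Glb1), and neither passed.

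Ctsz, a carboxypeptidase, had a higher mean in Ncstn KO and also in females, and neither difference passed the test. It had 12.31 in the Ncstn KO female and 12.02 in the Ncstn KO male, against 12.02 in the WT female and 11.79 in the WT male. The female arrays were thus higher within each genotype, and the genotypes were only 0.0032 apart at their nearest arrays. The difference for genotype was 0.26 (SE 0.13, adjusted p = 0.823) in the fit without sex. In the fit with genotype and sex, female minus male was 0.26 (SE 0.07, adjusted p = 0.574). Genotype in that same fit had an SE of 0.07 as well (limma unadjusted p = 0.0141, adjusted p = 0.46), so Ctsz did not differ more by sex than by genotype. The genotype difference was 0.12 without Ncstn KO replicate 1, 0.40 without Ncstn KO replicate 2 and 0.15 without WT replicate 1. Its 3 probe sets gave 0.26 to 0.32 for genotype. Ctsz was the only one of the 10 with an unadjusted p under 0.05 for sex, where 8.58% of all genes had one. After adjustment 0 of 10 cathepsin genes and 0.022% of all genes passed for sex. The class II antigen processing genes were higher in females for 7 of 7 measured members, with a median of 0.78. Of these, 6 had an unadjusted p under 0.05 (limma). Of all 18193 genes, 11492 were higher in females, with a median of 0.07. Cd74, the invariant chain cut by cathepsin S and named here after its values were seen, had 13.06 in the Ncstn KO female and 11.78 in the Ncstn KO male, against 12.70 in the WT female and 11.59 in the WT male. For genotype the class II list had 0 members past the test in either direction. Its median was 0.28 (-0.18 without Ncstn KO replicate 1 and -0.03 without WT replicate 1). Both Ncstn KO arrays lay above both WT arrays for 1 of its 7 members, and for 21.3% of all genes. The member with the smallest p in this list, H2-DMa, differed by 0.17 (SE 0.09).

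The remaining lysosomal genes were read in the same fit, in which 0 of them passed in either direction. Of 10 other cathepsins and lysosomal peptidases, 8 were above WT, with a median of 0.31. They included the neutrophil granule protease Ctsg (0.58, SE 0.08, adjusted p = 0.196), the aspartic protease Napsa (0.38, SE 0.10), and the carboxypeptidase genes Prcp (0.29, SE 0.08) and Scpep1 (0.38, SE 0.14). Of 25 other hydrolases and activators, 17 were above WT, with a median of 0.14 (-0.06 scaled to the hybridization controls). Those named by the smallest p were the glycosidases Man2b1 (0.51, SE 0.11) and Fuca1 (0.38, SE 0.10), Psap (0.20, SE 0.08), whose product activates sphingolipid hydrolases, and, below WT, Acp5. All 8 membrane protein genes were above WT (median 0.12, and -0.07 scaled to the hybridization controls), with Cd68, a macrophage lysosomal protein, at 0.84 (SE 0.24). Of 15 proton pump subunits 11 were above WT (median 0.06, and -0.13 with that scaling), with Atp6v0d1 at 0.38 (SE 0.12). The 6 regulators of lysosomal genes had a median of 0.02, and their largest difference was that of Tfe3, a factor that binds the CACGTG element, at 0.26 (SE 0.11, adjusted p = 0.76). The placental cathepsins had 4 of 8 above WT (median 0.03), and Ctsq, with the smallest p, was at -0.31 (SE 0.14). Arrays of Ncstn KO both lay above both WT arrays for 7 of 8 membrane protein genes and 7 of 10 other peptidases. This held for 13 of 25 other hydrolases, 7 of 15 proton pump subunits, 2 of 8 placental cathepsins and 1 of 6 regulators. It held for 21.3% of all genes, so the separation seen for 8 of the 10 cathepsin genes was not particular to them.

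Among the inhibitors and sorting receptors of cathepsins, Stfa3 and Igf2r differed most. Stfa3, a stefin that inhibits cysteine cathepsins, had 8.24 and 10.20 in Ncstn KO, against 6.11 and 5.72 in WT, a difference of 3.30 (SE 0.61, 9.85-fold, limma adjusted p = 0.293). With Ncstn KO replicate 1 left out it passed (4.28, adjusted p = 0.0234), as it did after centring each array on its median (adjusted p = 0.0272), and its adjusted p over the alternatives reached 0.936. The stefins are a cluster of near-identical genes that can share probes, and Stfa1 and Stfa2 were not analysed here. All 7 measured inhibitor genes were above WT with a median of 0.14, which turned to -0.06 under the scaling to the hybridization controls, and Cst7, a cystatin of leukocytes, was at 0.37 (SE 0.13). Igf2r, the large mannose 6-phosphate receptor that carries cathepsins to the lysosome, had 8.01 and 7.63 in Ncstn KO, against 9.45 and 9.10 in WT (-1.46, SE 0.24, adjusted p = 0.241). The other receptor gene, M6pr, had a difference of 0.09 (SE 0.08), and the 11 sorting genes had a median of 0.01.

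**Figure D4:**
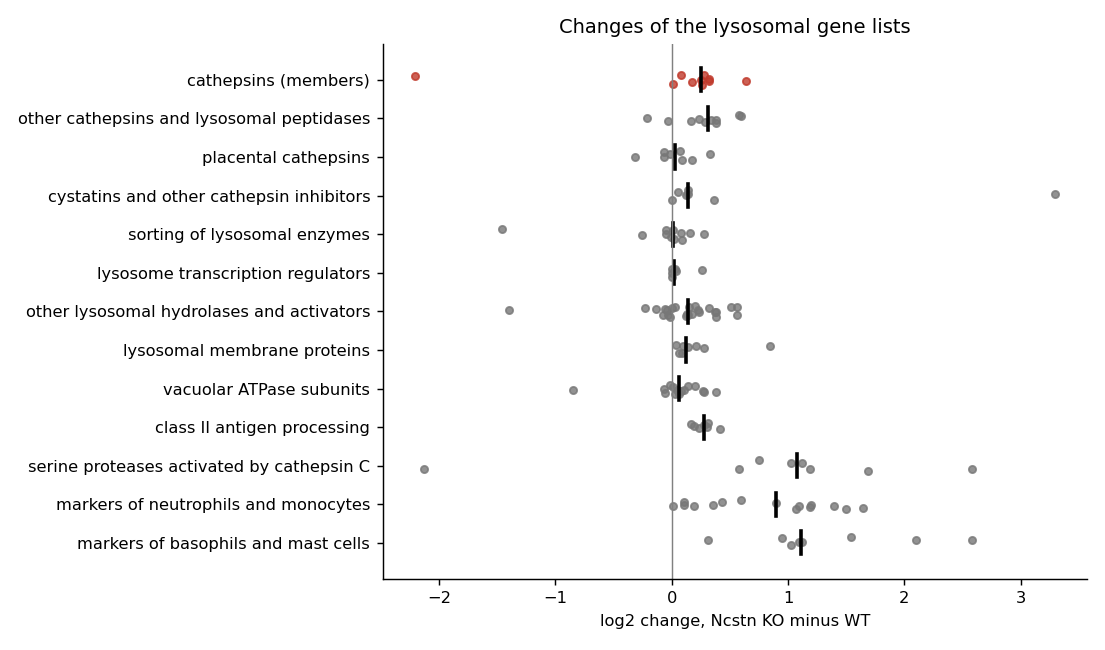
Log2 difference, Ncstn KO minus WT, of each measured gene in the lysosomal lists, the granule serine proteases and the markers of neutrophils and monocytes and of basophils and mast cells. Each point is a gene, placed at random height within its row, and the black bar is the list's median: 0.26 for the cathepsins, 0.90 for neutrophil and monocyte markers and 1.11 for basophil and mast cell markers. Some genes appear in several rows.

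The granule serine proteases, the enzymes that cathepsin C activates, were read beside Ctsc. Of 8 such genes 7 were above WT, with a median of 1.08 and 0 past the test in either direction. Both Ncstn KO arrays lay above both WT arrays for these 7, and below them for Gzma. Of all genes, 21.3% lay above in this way and 12.8% below. The lists are not separate sets of genes. Mcpt8 and Cma1, for example, are also basophil and mast cell markers below, and Ctsg is also among the other cathepsins above. Cd68 is both in the membrane protein list and among the macrophage markers. Elane, neutrophil elastase, was at 1.19 (SE 0.11, adjusted p = 0.117), Prtn3, proteinase 3, at 0.75 (SE 0.10) and Mcpt8, a basophil protease, at 1.03 (SE 0.12). Gzma, granzyme A, named after its values were seen, had a lower mean, at -2.13 (SE 0.70). Without Ncstn KO replicate 1 Elane passed (1.29, adjusted p = 0.0343), without Ncstn KO replicate 2 Gzma passed (-3.27, adjusted p = 0.0282) but without Ncstn KO replicate 1 it did not (-0.99, adjusted p = 0.199), and after median centring Elane and Mcpt8 passed. Such fits leave 1 genotype with a single mouse of 1 sex, which is assumed to vary like the other genotype.

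Cathepsins are also expressed by mature myeloid cells, and markers of such cells and of other blood cells were read on the same arrays. In no marker list did any gene pass the test (limma, 0 adjusted p under 0.05). All 15 measured neutrophil and monocyte markers had a higher mean in Ncstn KO, from S100a9 (0.01) to F13a1 (1.64). Their summed intensity was 54950 and 71659 in Ncstn KO and 57334 and 45802 in WT. Both Ncstn KO arrays lay above both WT arrays for 9 of the 15 markers, and for 21.3% of all genes. For sex, 10 of the 15 markers had an unadjusted p under 0.05 (limma), against 8.58% of all genes. The median female minus male of these markers was -0.36. Of 14 macrophage and dendritic cell markers 6 were above and 8 below WT, from Cd5l (-0.98) to Adgre1 (0.96), with sums of 3810 and 4083 in Ncstn KO and 2389 and 2943 in WT. All 8 basophil and mast cell markers were above WT, from Gata2 (0.31) to Cma1 (2.58), with sums of 12659 and 11585 in Ncstn KO and 8140 and 7679 in WT. B cell markers had 6 of 9 above WT, from Ms4a1 (-2.12) to Vpreb1 (0.57), with sums of 3884 and 8231 in Ncstn KO and 4767 and 4834 in WT. Erythroid markers had 6 of 8 above WT, from Alas2 (-1.30) to Rhag (1.04), with sums of 21290 and 18889 in Ncstn KO and 18273 and 17306 in WT. The LSK markers had 3 of 7 above WT, from Procr (-0.18) to Slamf1 (0.83), with sums of 22766 and 25443 in Ncstn KO and 24637 and 21783 in WT. No marker had an intensity of 0, since the deposited values have a floor above it. The sums of macrophage, basophil and erythroid markers were higher on both Ncstn KO arrays than on both WT arrays, and those of the other lists overlapped. Gene by gene, this held for 8 of 8 basophil, 5 of 14 macrophage and 4 of 8 erythroid markers. It held for 2 of 9 B cell and 1 of 7 LSK markers. Of all genes, 21.3% lay above without overlap and 12.8% below. A sum is set mostly by its brightest genes, and 8 of the 14 macrophage and dendritic cell markers had a lower mean in Ncstn KO. The part of such cells in the cathepsin values was not tested.

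**Figure D5:**
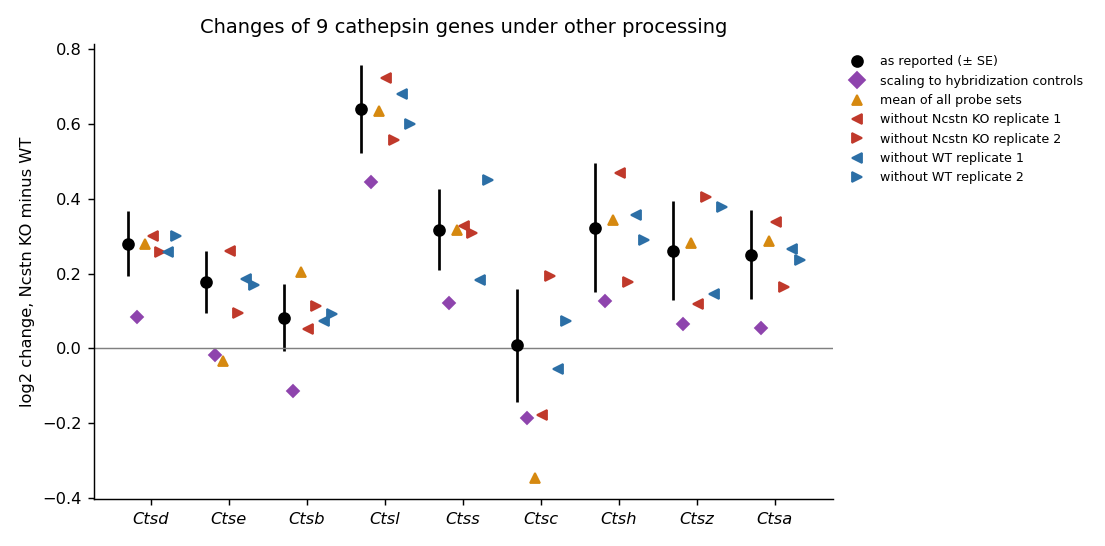
Log2 difference, Ncstn KO minus WT, of 9 cathepsin genes (without Ctsk) as reported (black, ± SE), after scaling to the hybridization controls, with the mean of all probe sets of a gene, and without each array in turn. Ctsl is at 0.44 or above in all of them, and Ctsb, Ctsc and Ctse reach values below 0.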

How the data were processed

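RNA of sorted LSK cells from 4 mice was hybridized to Affymetrix arrays, after amplification of 5 ng of total RNA per the labels' protocols. The authors deposited linear probe set intensities (3.32 to 23642.6), made with RMA according to the submitters' processing notes. The software and chip definition behind them were not given in the sources used here. Signal over background could not be assessed without single probes, and the number of arrays limits the precision. The array medians ran from 71.6 to 79.2, and no scaling was added.

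Log2 was taken of 45101 probe sets less 64 controls. Symbols came from GEO's platform annotation of the 34945 probe sets that name 1 gene, while 932 name several and 9160 none. All 10 cathepsin genes matched the RefSeq table (GRCm38.p6) by Entrez identifier. The tests used limma 3.58.1 under R 4.3.3 (lmFit, eBayes with trend, two-sided). Genotype was the only term (2 residual degrees of freedom). Sex was tested with genotype and sex as terms (1 residual degree of freedom). The script was tested on simulated data. The 10 members and the lists were chosen with earlier results of these data known. Genes named beside the members were Ncstn and the extremes of each marker list. In each list up to 4 with the smallest p under 0.05 were named (the first where there was none). Others were marked as named after their values were seen, with Cd4, Cd8a, M6pr, Neu1, Glb1 and the remaining osteoclast markers. Further macrophage markers beside Ctsk were also named after their values were seen. Alternatives were 3 scalings, an offset of 16, no variance trend, sex or replicate number as a term, each array left out, each sex alone, the mean of a gene's probe sets and a filter on dim genes. The promoter motifs were also chosen with results known, and longer forms of some that were searched are not reported. Figures were drawn with matplotlib 3.10.9.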

Additional observations from a re-analysis of the deposited data

Results flagged for a closer look

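Ctsc, Ncstn KO minus WT, was 0.13 between the 2 females and -0.11 between the 2 males (log2). With 1 mouse per sex and genotype, the difference between the sexes was not tested. A dim Ctsb probe set also had opposite signs, at 0.13 between the females and -0.15 between the males, again untested.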

How the results depend on the processing

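No cathepsin gene passed in any of the 13 fits with a test (limma, adjusted p under 0.05), and 6 to 9 of the 10 had a higher mean in Ncstn KO. Their median difference was 0.0608 after scaling to the hybridization controls, which left 2 genes with both Ncstn KO arrays above both WT arrays, and 0.176 within the female pair. Without 1 array it ran from 0.185 to 0.28. The number of genes past the threshold in the lysosomal lists was 3 after median centring and ran from 0 to 2 without 1 array. The causes were not tested, except that fewer arrays were fitted.

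The replicate numbers are shared by the genotypes, but deviations of same-numbered arrays from their group means correlated negatively (r = -0.24 over genes). With a replicate block 0 cathepsin genes passed, and 0 passed with the crossed pairing, which is that by sex. For sex itself no array could be left out, as no residual degrees of freedom remained, and a pair of arrays gives no test.

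Some differences turned sign. Scaled to the hybridization controls these were Ctsb (-0.113, and -0.0649 for 1 of its other probe sets), Ctsc (-0.187), Ctse (-0.0179), H2-DMa (-0.0302) and S100a9 (-0.185), and the medians of inhibitors (-0.0592), other hydrolases (-0.0577), membrane proteins (-0.0739), proton pump subunits (-0.131), placental cathepsins (-0.168), sorting genes (-0.185), regulators (-0.179) and B cell markers (-0.148), beside that of all genes (-0.171). Among single genes and probe sets, with the mean of all probe sets they were Ctsc (-0.347) and Ctse (-0.0325), and with quantile normalization Ctsc (-0.000978). Without 1 array, Ctsc ran from -0.177 to 0.194, Procr from -0.402 to 0.0483, Kit from -0.23 to 0.143, S100a9 from -0.053 to 0.0731, Vpreb1 from -0.368 to 1.51, Cd74 from -0.368 to 0.921, a dim Ctsa probe set from -0.0401 to 0.686 and a dim Ctsb probe set from -0.11 to 0.0882. Within the female pair S100a9 (-0.0172), Vpreb1 (-0.226) and Kit (0.128) turned, and within the male pair Ctsc (-0.113). Without Ncstn KO replicate 2, Ctse was 0.0954, Ctsa 0.164 and, without Ncstn KO replicate 1, Ctsb 0.052. Of 1132 values of single genes, probe sets and list medians under alternatives, 60 turned sign, of which 35 were list medians or that of all genes.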
